A study of Phanerodontia chrysosporium with 12 samples.

Results

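The response of the white-rot fungus Phanerochaete chrysosporium after 3 h with oak extractives was measured by RNA-seq in 6 of the 12 libraries of the series. These are the 3 libraries of mycelium harvested 3 h after the addition (3 h) and the 3 of mycelium harvested at once (T0). All were static liquid cultures of the homokaryotic strain RP78, grown for 4 days at 37 °C in 20 ml of a minimal medium with glucose. Every culture, T0 included, received oak extractives at 100 µg/ml, added from a stock of 200 mg/ml in DMSO. The extractives were the acetone-soluble part of Quercus petraea heartwood. The cultures of a time are labelled biological replicates. Cultures given DMSO alone for 3 h were not analysed here, so extractives, solvent, handling and 3 h of further growth cannot be told apart in this comparison.

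White-rot fungi are the organisms that break down lignin, the phenolic polymer of wood, and they do so with secreted oxidative enzymes. Heartwood also holds small phenolic compounds and tannins, collected here as extractives, many of which are toxic to microbes. Wood-decay fungi are known to meet such compounds with a detoxification system in which cytochrome P450 enzymes oxidise a foreign molecule, glutathione transferases conjugate it or bind it, and membrane transporters export the product. The tables list gene models by numeric protein ID and do not pair the IDs with names. The response is therefore described by the size of the changes and by the level, length and read share of the genes, with no enzyme family assigned.

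Of 13602 protein IDs listed, 482 had no read in any of the 12 libraries, 1307 had reads but fell below the filter on low counts, and 11813 were tested. Total gene reads were 10697807, 5439594 and 10217840 in 3 h replicates 1 to 3, against 9127928, 3007296 and 2498521 in T0 replicates 1 to 3. A dominant pair of short models, of 650 nt and 156 nt, took 3.12%, 15.7% and 4.12% of these reads in 3 h replicates 1 to 3, against 4.31%, 46.8% and 50.9% in T0 replicates 1 to 3. T0 replicates 2 and 3 thus stood apart from T0 replicate 1, and the groups overlapped. The mean share of the pair was 7.64% ± 6.98 at 3 h and 34.0% ± 25.8 at T0 (SD, n = 3), with p = 0.2 in a 2-sided exact permutation test that cannot go below 0.1. Neither model passed the test across all genes (edgeR quasi-likelihood, Benjamini-Hochberg adjusted p = 0.151 for the 650 nt model and 0.121 for the 156 nt model), and their log2 fold changes were -2.79 (SE 1.15) and, for the shorter, -2.91 (SE 1.12). Both log2 fold changes turned positive without T0 replicates 2 and 3, at 1.17 and 1.30. DESeq2 called both lower at 3 h, with Benjamini-Hochberg adjusted p-values of 0.0292 and 0.0289. The 156 nt model was also called lower by edgeR with the length trend removed (adjusted p = 0.0457) and without 3 h replicate 2 (adjusted p = 0.0397). Over 24 settings its adjusted p ran up to 0.94, in the edgeR fit with the pair's own share as a covariate. That fit brings the model's fold change near 0 by construction, so its p cannot show whether the model changed. The pair was left out of all read shares given below.

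After 3 h, 1133 genes differed from T0, which was 9.59% of those tested, in nearly equal numbers of rises and falls. Higher were 587 genes (4.97% of those tested) and lower were 546 (4.62%), at a Benjamini-Hochberg adjusted p under 0.05 in edgeR's quasi-likelihood test. Which direction had more genes depended on the setting, with 827 higher and 842 lower by DESeq2, 653 and 685 by limma-voom, 555 and 569 without the dominant models, 724 and 818 with the length trend removed, and 339 and 346 without T0 replicate 3. More of the rises than of the falls were wide. Of the genes that rose, 523 rose at least 2-fold, 156 at least 4-fold, 28 at least 8-fold and 5 at least 16-fold. Of the genes that fell, 425 fell at least 2-fold, 66 at least 4-fold, 15 at least 8-fold and 4 at least 16-fold. Called changes under 2-fold numbered 64 among the rises (10.9%) and 121 among the falls (22.2%), and the narrowest called change had a log2 size of 0.69. Over all tested genes the median log2 fold change was 0.03, with quartiles of -0.41 and 0.50. The 3 libraries of 3 h lay all above or all below the 3 of T0 for 578 of the 587 genes that rose and for 533 of the 546 that fell. Such a separation was found for 29.4% of all tested genes, 16.1% with 3 h above T0 and 13.3% with 3 h below.

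**Figure D1:**
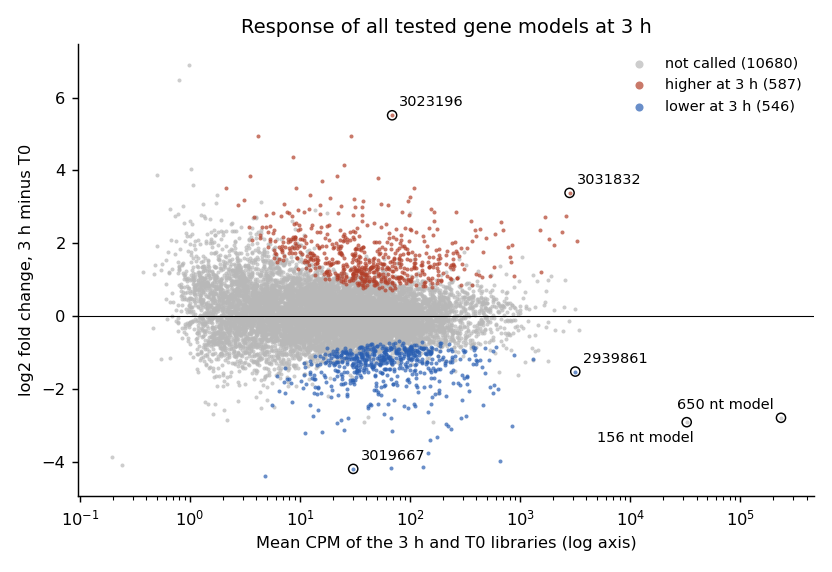
Each point is 1 of 11813 tested gene models, placed by its mean CPM over the 3 h and T0 libraries (log axis) and by its log2 fold change, 3 h minus T0. The 587 genes called higher and the 546 called lower lie on both sides of 0 at nearly all levels above about 10 CPM, while wide differences at lower levels were mostly not called.

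These counts come from a fit that did not use the replicate numbers, and with the replicate number as a block 976 genes were called. They also depended on the libraries. Without 3 h replicate 1 there were 484 changed genes, without 3 h replicate 3 there were 604 and without T0 replicate 3 there were 685. Genes called in the same direction with all 12 libraries and after leaving out each of the 12 in turn numbered 236 higher and 176 lower. The pair's share moved with the comparison, and with this share as a covariate 631 genes were called, 355 higher and 276 lower. Without T0 replicates 2 and 3, where T0 is a single library assumed to vary like the other groups, 262 genes were called, 133 higher and 129 lower. The median log2 fold change of the 587 genes was 1.53 in that last fit, close to the 1.55 of the fit with all libraries, and that of the 546 genes was -1.16, against -1.25. T0 replicate 1, with a share of the pair near those of 3 h replicates 1 and 3, is in both fits, and it was among the libraries from which the genes were chosen.

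The genes that rose held a larger part of the transcriptome after 3 h and the genes that fell a smaller one. The genes that rose accounted for 14.7%, 13.4% and 13.8% of the reads outside the dominant pair in 3 h replicates 1 to 3, against 4.23%, 4.60% and 3.83% in T0 replicates 1 to 3. The genes that fell held 4.43%, 4.19% and 4.55% in 3 h replicates 1 to 3, against 11.9%, 11.1% and 12.6% in T0 replicates 1 to 3. The 95% Wilson intervals of these shares and of those of the pair reach at most 0.062 percentage points to either side and cover counting error only. Within each group the 3 libraries were close, and the choice of genes by calls in these same libraries favours such closeness. The shares of both sets are set by the choice of genes and were not tested. The remaining models, none of them called, held 81.7% ± 0.744 of the reads at 3 h and 83.9% ± 0.394 at T0 (SD, n = 3). In the 1 h and 6 h libraries, which are not part of the contrast, the genes that rose held 7.85% ± 1.12 and 12.0% ± 2.81, and the genes that fell held 6.80% ± 0.285 and 5.13% ± 0.788 (SD, n = 3 each). The 1 h means thus lay between those of T0 and 3 h, and the 6 h means nearer to 3 h. The choice of genes by 3 h against T0 favours means between these groups at the other times. The 1 h and 6 h libraries also entered the fit behind the calls. The 6 h libraries varied, since in replicate 1 the genes that rose held 9.35% and the genes that fell 5.78%.

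**Figure D2:**
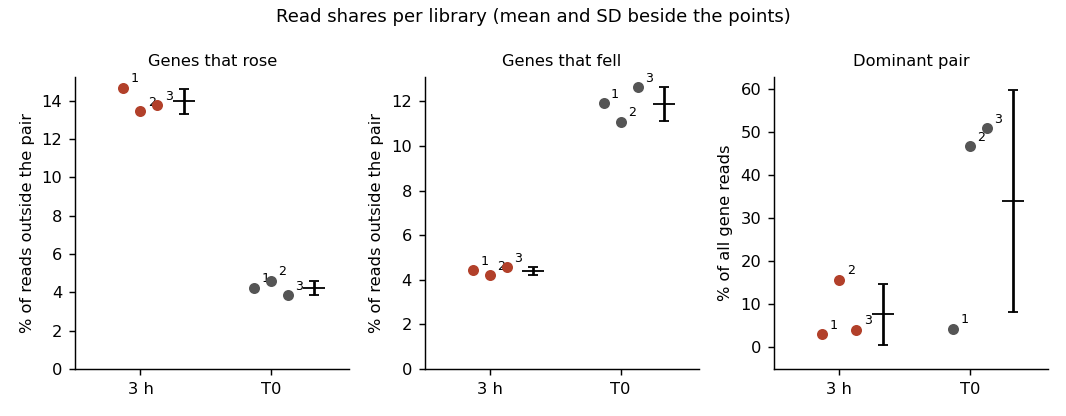
Points are single libraries, numbered by replicate, for 3 h (left) and T0 (right), with the mean and SD of 3 libraries beside them. The first panels show the percentage of reads outside the dominant pair in the 587 genes that rose and the 546 that fell, and the last shows the percentage of all gene reads in the dominant pair, where T0 replicate 1 lies with the 3 h libraries.

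Few genes carried the rise in reads, and more genes shared the fall. Differences of mean CPM (counts scaled to the TMM-scaled library size), 3 h minus T0, were ranked within each set. The 21 genes with the largest differences, 3.58% of the genes that rose, made up 50% of the summed rise, and the largest 10 made up 38.6%. For the genes that fell, 62 genes (11.4%) made up 50%, and the largest 10 made up 20.6%. The 21 genes had log2 fold changes from 1.09 to 3.38, with a median of 2.26. They held 6.62%, 6.12% and 6.13% of the reads outside the pair in 3 h replicates 1 to 3, against 1.31%, 1.71% and 1.18% in T0 replicates 1 to 3. The 62 genes had log2 fold changes from -4.13 to -0.85, with a median of -1.69. They held 1.74% ± 0.0324 of these reads at 3 h and 5.50% ± 0.388 at T0 (SD, n = 3). Both sets were picked by these differences, so the shares describe their size and test nothing.

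**Figure D3:**
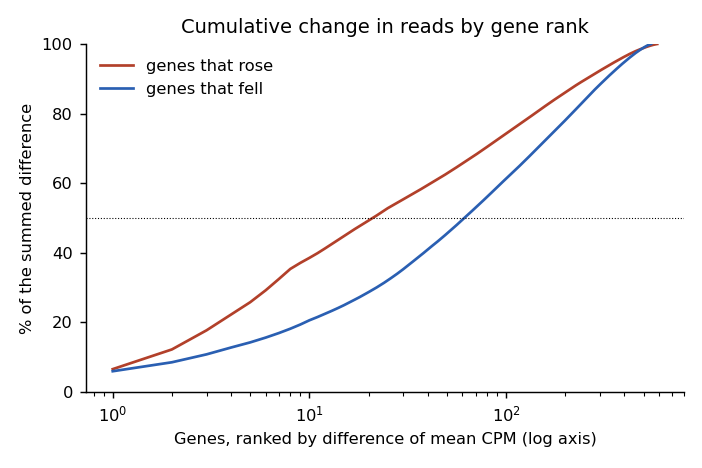
Genes that rose and genes that fell are ranked by the size of their difference of mean CPM, 3 h minus T0 (log axis), and the lines give the percentage of each set's summed difference reached by a rank. The line of the genes that rose crosses 50% at 21 genes, and that of the genes that fell at 62 genes.

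Single models were picked from 1082 called genes that reached a mean of 10 CPM in either group and whose groups did not overlap. Protein 3031832 (828 nt) had the largest gain in CPM among them. It reached 5224, 5405 and 4737 CPM in 3 h replicates 1 to 3, against 452, 707 and 313 CPM in T0 replicates 1 to 3. The 3 h libraries lay close together and far above every T0 library. This was a 10.4-fold rise (log2 fold change 3.38, SE 0.467; edgeR quasi-likelihood, Benjamini-Hochberg adjusted p = 0.000455). It alone made up 6.60% of the summed rise. Per kilobase of length it ranked 9 among the tested models at 3 h and 201 at T0. Over the time course the mean was 490.7 ± 199.8 CPM at T0, then 1665 ± 638 CPM after 1 h, 5122 ± 345 CPM after 3 h and 4131 ± 2173 CPM after 6 h (SD, n = 3). The 6 h libraries spread more widely than the 3 h libraries, from 2335 to 6547 CPM.

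Protein 3023196 (1332 nt) had the largest fold increase among these candidates, from a very low start. It had 181, 52.2 and 169 CPM in 3 h replicates 1 to 3, against 3.03, 3.84 and 1.64 CPM in T0 replicates 1 to 3. The lowest 3 h library was still far above the highest T0 library, but 3 h replicate 2 was well below the other two. The rise was 45.7-fold (log2 fold change 5.51, SE 0.512; edgeR quasi-likelihood, Benjamini-Hochberg adjusted p = 2.46e-05). It rests on 2779, 296 and 2504 reads at 3 h and on 41, 8 and 3 reads at T0, so the T0 level is known only roughly. In the summed rise it weighed 0.187%, since a wide fold on a low level adds few reads. The 5 genes that rose at least 16-fold were all of this kind, with mean levels from 8.22 to 134 CPM at 3 h and from 0.123 to 3.18 CPM at T0.

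Protein 2939861 (741 nt) had the largest loss in CPM among the same candidates. It had 1397, 1976 and 1536 CPM in 3 h replicates 1 to 3, against 4050, 4698 and 5328 CPM in T0 replicates 1 to 3. All 3 h libraries were below all T0 libraries by a wide gap. The fall was 2.87-fold (log2 fold change -1.52, SE 0.30; edgeR quasi-likelihood, Benjamini-Hochberg adjusted p = 0.00511). Without T0 replicates 2 and 3 the call was lost (log2 fold change -1.32, edgeR adjusted p = 0.084). Over 25 other settings, by edgeR, DESeq2 or limma-voom, its adjusted p ran from 7.36e-10 to 0.084. It made up 6.00% of the summed fall and ranked 30 per kilobase at 3 h and 7 at T0. Its mean was 4692 ± 639 CPM at T0, then 1286 ± 216 CPM after 1 h, 1636 ± 303 CPM after 3 h and 2207 ± 248 CPM after 6 h (SD, n = 3). The lowest mean was thus that of 1 h.

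Protein 3019667 (1501 nt) had the largest fold decrease among the candidates. It had 3.52, 1.94 and 3.58 CPM in 3 h replicates 1 to 3, against 32.0, 82.1 and 59.0 CPM in T0 replicates 1 to 3. The 3 h libraries all lay within a narrow low range, on 54, 11 and 53 reads, and the T0 libraries, on 433, 171 and 108 reads, were all higher. The fall was 18.3-fold (log2 fold change -4.19, SE 0.552; edgeR quasi-likelihood, Benjamini-Hochberg adjusted p = 0.000326). At 1 h it was at 21.0 ± 12.5 CPM and at 6 h at 6.12 ± 3.59 CPM (SD, n = 3). The 4 genes that fell at least 16-fold had mean levels from 0.458 to 14.3 CPM at 3 h and from 9.11 to 245 CPM at T0. Reads of the 4 named models were all unique to them.

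**Figure D4:**
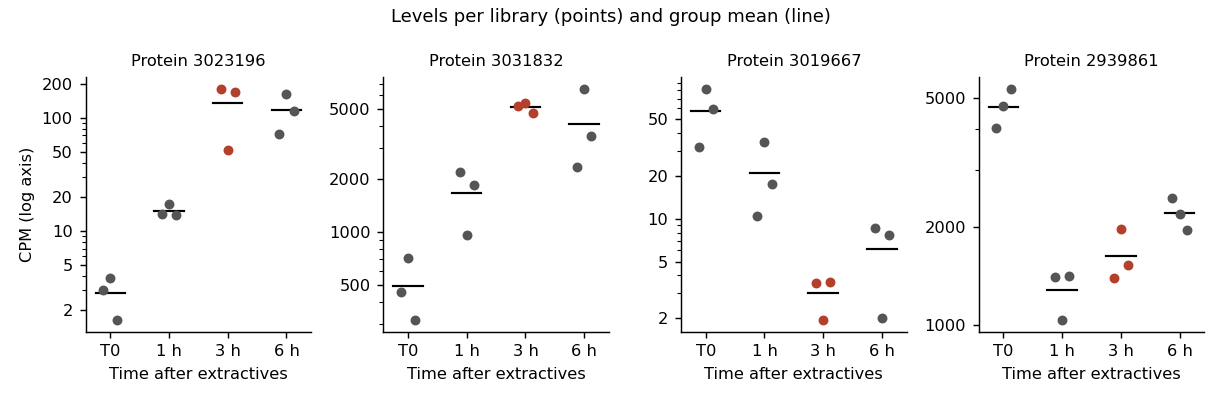
Levels of the 4 named gene models in CPM (log axis) in every library at T0, 1, 3 and 6 h after the addition; points are libraries, with 3 h in red, and lines are group means of 3. Proteins 3023196 and 3031832 were higher in all 3 h libraries than in all T0 libraries, and proteins 3019667 and 2939861 were lower.

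The level of a gene bore on how often it was called. The tested genes were divided into 4 classes of nearly equal size by mean CPM over the 12 libraries. In the lowest class, up to 6.96 CPM, 28 genes were higher and 8 lower, or 1.22% of the class, and the median SE of the log2 fold change was 0.771. The second class had 133 higher and 97 lower genes (7.79%). The third had 185 higher and 186 lower (12.6%). In the highest class, from 57.5 CPM, 241 genes were higher and 255 lower, or 16.8%, with a median SE of 0.284. In these counts rises outnumbered falls in the classes below 22.9 CPM and did not in those above. The depth of T0 is part of the setting of these counts, since 0.279%, 7.30% and 0.347% of tested genes had under 10 reads in 3 h replicates 1 to 3, against 1.02%, 21.1% and 23.8% in T0 replicates 1 to 3. Genes that rose had a median level of 56.3 CPM at 3 h and 21.9 CPM at T0, and genes that fell had one of 32.9 CPM at 3 h and 81.8 CPM at T0.

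Short models were called higher more often than lower, and long models the other way round. Among the shortest of 4 length classes, up to 858 nt, 154 genes were higher and 92 lower. Among the longest, from 1830 nt, 103 were higher and 168 lower. The class medians of the log2 fold change were 0.08 in the shortest class and -0.08 in the longest. After the trend on gene length was removed from each library, 193 genes were higher and 179 lower in the shortest class and 171 were higher and 209 lower in the longest, with class medians of -0.01 and -0.03. The gap between short and long classes was thus smaller under that setting. The second class went from 146 higher and 131 lower genes to 162 higher and 209 lower. The third class went from 184 higher and 155 lower to 198 higher and 221 lower. Falls then outnumbered rises in every class but the shortest. The read-weighted mean length of transcripts outside the pair was 1501, 1284 and 1558 nt in 3 h replicates 1 to 3, against 1592, 1307 and 1633 nt in T0 replicates 1 to 3. Replicate 2 was the lowest of its group at both times. The means were 1448 ± 145 nt at 3 h and 1511 ± 178 nt at T0 (SD, n = 3), a difference smaller than the spread between replicates (2-sided exact permutation test, p = 0.5, smallest possible 0.1). Within replicate numbers 1 to 3 the differences, 3 h minus T0, were -91.5, -22.9 and -74.5 nt, all of one sign (2-sided exact sign-flip permutation test, p = 0.25, the smallest it can give). Its part in the counts by length was not tested beyond the removal of the trend.

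**Figure D5:**
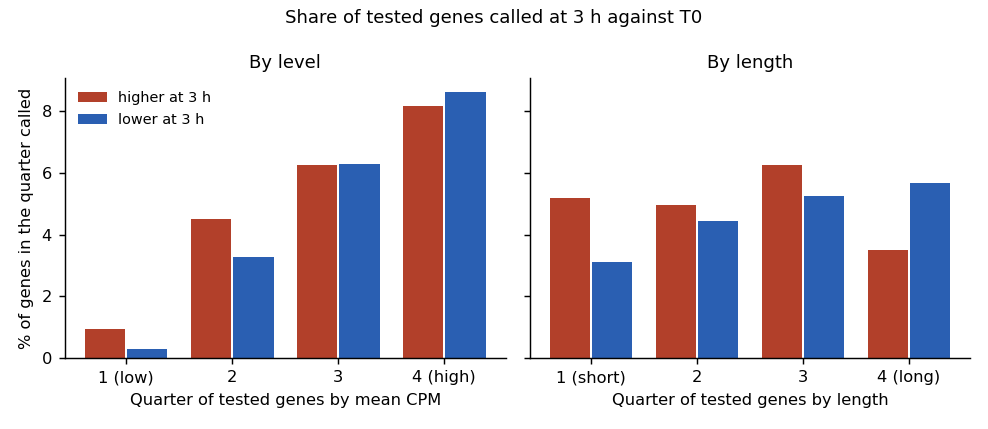
Bars give the percentage of tested genes called higher (red) or lower (blue) at 3 h against T0, in 4 classes of mean CPM over the 12 libraries (left) and 4 classes of length (right). The percentage called grows with level in both directions, and the longest class is the only length class with more genes lower (168) than higher (103).

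The list of the most abundant transcripts differed in part between 3 h and T0. Of the 100 models with the highest mean level per kilobase outside the dominant pair, 71 were the same at 3 h and at T0. Of the 29 found only in the 3 h list, 14 were called higher, and the one that had been lowest ranked 653 at T0. Of the 29 found only in the T0 list, 5 were called lower, and one of the 29 ranked 1343 at 3 h. The other models found in only 1 of the lists had no call in that direction. Of all tested genes, 4.97% were called higher and 4.62% lower. Membership in only 1 list follows from the same 3 h and T0 levels as the calls. Calls in that direction are thus favoured by the choice of models, and these counts test nothing. Overlap between lists of libraries of the same group was not measured, so these differences are not set against the spread between replicates. Among the 100 models outside the dominant pair with the highest mean CPM over all 12 libraries, 13 were higher and 3 lower. This is 16%, near the 16.8% of the highest class of level and above the 9.59% of all tested genes. The log2 fold changes of these 100 models ran from -1.62 to 3.38 with a median of 0.19. The ranking includes the libraries of 1 h, 3 h and 6 h, so it favours genes that rose. The balance of 13 to 3 and the median are thus partly set by the ranking. The 100 most read models of each library held 19.6%, 22.2% and 19.2% of the reads outside the pair in 3 h replicates 1 to 3, against 16.3%, 19.3% and 18.4% in T0 replicates 1 to 3. The groups overlapped, with means of 20.3% ± 1.66 at 3 h and 18.0% ± 1.52 at T0 (SD, n = 3; 2-sided exact permutation test, p = 0.2). The differences within replicate numbers 1 to 3 were 3.22, 2.90 and 0.815 percentage points for the 100 models and -1.19, -31.1 and -46.8 points for the dominant pair, each of one sign (2-sided exact sign-flip permutation test, p = 0.25 for each, the smallest it can give). Adjusted over the 3 unpaired library-level tests, the p-values were 0.3 for the share of the dominant pair, 0.3 for that of the 100 models and 0.5 for the mean length (exact permutation tests, Benjamini-Hochberg adjustment).

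Few transcripts had a read in every library of 1 group and none in the other, and none of those was called. A read in each 3 h library and none in any T0 library was found for 19 models. They had 4 to 82 reads summed over the 3 h libraries (median 15). Only 1 of the 19 was tested, so the lack of calls says little. That model also had reads in 1 h replicate 3 and in each 6 h library. A read in each T0 library and none in any 3 h library was found for 2 models, with at most 10 reads summed over T0. The 3 h libraries held 24747523 reads outside the dominant pair, against 11560493 in the T0 libraries. Where no read was counted, 3 counts would give a level of 0.195, 0.529 and 0.203 CPM in 3 h replicates 1 to 3, against 0.222, 1.44 and 1.64 CPM in T0 replicates 1 to 3.

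By 95% intervals on 8 degrees of freedom, genes that were not called were mostly not shown to be steady. Of the 10680 genes without a call, 2810 had a 95% interval of the log2 fold change that lay wholly inside a 2-fold change in either direction. For the other 7870 genes (73.7%) the interval reached past 2-fold. The test behind the calls uses more degrees of freedom, so these intervals are wider than it would give and the 7870 is a high count. An estimate of at least 2-fold without a call was found for 1069 genes, one of at least 4-fold for 102 and one of at least 8-fold for 12. The 102 genes had a median level of 2.48 CPM, against 31.3 CPM for the called genes with changes of at least 4-fold. The T0 libraries differed from one another nearly as much as the groups did, and the 3 h libraries mostly less. Over 8087 genes of at least 10 CPM, the median absolute log2 difference between 2 libraries was 0.131 for 3 h replicates 1 and 3, 0.379 and 0.435 for 3 h replicate 2 with these, and from 0.367 to 0.607 within T0. Between a 3 h and a T0 library it ran from 0.415 to 0.681. The 3 h replicates 1 and 3 were the closest pair, yet they differed by more than sampling noise, with a chi-square of 8.07 per degree of freedom. Reads shared between gene models touched few calls: 28 of the called genes (2.47%) had over 10% of their reads not unique to them, against 3.27% of all tested genes, so the source of those 28 is less sure.

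Across the time course the genes called at 3 h had smaller median changes at 1 h. The median of the 587 genes that rose, as log2 fold change from T0, was 0.95 after 1 h, 1.55 after 3 h and 1.37 after 6 h. The corresponding medians of the 546 genes that fell were -0.75, -1.25 and -0.99. All 3 comparisons use the same T0 libraries, and the choice of genes by their 3 h values favours 3 h. Among the genes that rose, the fitted level of the 3 later times was highest at 1 h for 89, at 3 h for 336 and at 6 h for 162. Among the genes that fell it was lowest at 1 h for 71, at 3 h for 367 and at 6 h for 108.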

How the data were processed

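The authors deposited a table for each of the 12 libraries, holding for 13602 protein IDs the read counts (unique and total) and RPKM, per the file headers. Total gene reads are the counts used. The RPKM values, scaled by the authors to the total gene reads of a library, served only to recover model lengths, to within a relative gap of 1.6e-08. The counts of 3 h replicate 1 came from the column whose longer header names paired reads. Not given in the sources used here are aligner, build, annotation and strand, so overlapping or antisense models may share reads. No annotation was used here.

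The deposited counts were tested with edgeR 4.0.16 under R 4.3.3 (TMM scaling, filterByExpr, glmQLFit and glmQLFTest, Benjamini-Hochberg adjustment). All 12 libraries entered the fit with time as the only term (8 residual degrees of freedom, biological coefficient of variation 0.333). An SE is the fold change (absolute log2) divided by the square root of its F statistic, and 95% intervals use 8 degrees of freedom. The quasi-likelihood test uses more, so the intervals are wider than that test would give. Same-numbered 3 h and T0 libraries deviated together from their group means (r = 0.519, 0.624 and 0.408 over genes of at least 10 CPM). The replicate numbers were therefore taken to pair the libraries in the fit with a block and in the differences within replicate numbers. The main fit did not use this pairing. The pairing rests on the data, not on a label, and 3 h replicate 3 correlated slightly better with T0 replicate 1 (r = 0.449). On simulated counts, 67.3% of 98 genes with 4-fold changes and 12.4% of 97 with 2-fold changes at 3 h against T0 were called, with 11498 genes tested. Far fewer genes were changed there than were called in the data, and no replicate effect was simulated. These percentages therefore need not hold for the real fit.

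Members, classes and settings were chosen with earlier results of these data known. From called genes of at least 10 CPM in 1 group and with groups that do not overlap (1082 candidates), the named models are, in each direction, that with the largest log2 fold change and that with the largest difference of mean CPM. Gene lists planned by product name were not tested because the IDs carry no names. Other settings were DESeq2 1.42.0 and its size factors, limma-voom (limma 3.58.1), upper quartile scaling, 2 other filters, the 6 libraries alone, the replicate number as a block, unique reads, the dominant pair removed or as a covariate, the length trend removed and each library left out. Leaving out T0 replicates 2 and 3 together, and library-level differences within replicate numbers, were added after the data were seen.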

Additional observations from a re-analysis of the deposited data

How the results depend on the processing

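With the replicate number as a block, 976 genes were called, 529 higher and 447 lower, and the block changed no call of a named model. The 3 h and T0 libraries alone gave 735 changed genes, 342 of them lower, and DESeq2 gave 842 lower genes. The fit with the pair's share as covariate gave 631, 355 higher and 276 lower. Its log2 fold changes of 0.12 for the 650 nt and 0.086 for the 156 nt dominant model are near 0 by construction, since the covariate is their own share. Without T0 replicates 2 and 3 together there were 262, 133 higher and 129 lower, with log2 fold changes of 1.17 and 1.30 for these models. Leaving out 1 of the 12 libraries gave 484 to 1218 changed, 296 to 643 higher and 188 to 575 lower genes. The cause of these shifts was not tested, and fits that leave out libraries also rest on fewer of them. Leaving out 1 of the 6 compared libraries, the difference in read-weighted mean length, 3 h minus T0, ran from -165 nt (without T0 replicate 2) to 18.9 nt (without 3 h replicate 2). edgeR, DESeq2 and limma-voom shared 530 higher and 539 lower genes, and all 26 settings shared 103 and 106. Proteins 3023196, 3031832 and 3019667 kept their calls in all 25 other settings. The depth of T0 replicates 2 and 3 limits what can be said below about 7 CPM.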
